A study of Mus musculus with 20 samples.

Results

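Polycomb repressive complex 2 (PRC2) methylates lysine 27 of histone H3, and Suz12 is the subunit that holds the complex together. In embryonic stem cells PRC2 sits at CpG-rich starts of genes that are silent until differentiation, and at master regulators of lineage it spreads over a whole gene or a run of neighbouring genes. Such broad domains are known above all from the Hox clusters and from other homeobox, paired-box, forkhead and GATA genes. Here 357 broad domains were described, out of 11943 merged Suz12 regions. They were selected on measured values: presence of a peak in all 8 peak lists and the width of the widest single peak, which had to reach 5000 bp. Of the 4281 regions with a peak in all 8 lists, called constitutive here, the other 3924 had narrower peaks.

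The study asked where PRC2 binds once transcription is shut off. The cells were E14 mouse embryonic stem cells, a wild-type line, grown in serum medium with LIF on gelatin. The treated groups were DRB at 100 µM for 12 h and triptolide at 10 µM for 9 h. Each had its own 0 h group of untreated cells, and each of the 4 groups held 2 Suz12 ChIP-seq libraries. DRB inhibits the kinase that releases RNA polymerase II from its pause, and triptolide blocks the TFIIH helicase that opens promoters. Of 20 samples in the series the other 12 were not analysed here. Nothing in the labels says that the replicates were separate cultures, so p-values measure only the spread between these libraries. Reads counted over the regions ranged from 1323927 to 7340017 per library. Replicates differed beyond counting noise in every group, and the ratio of chi-square to its degrees of freedom lay between 2.47 (triptolide 9 h) and 8.65 (DRB 12 h). Treated and untreated libraries were run in different sequencing lanes, per the file headers, so lane and treatment cannot be told apart. As a check on the cell type, Pou5f1 and Nanog, which are active in embryonic stem cells, had 0 Suz12 regions within 1 kb of either gene end in any list. The check covers these genes alone. The list of pluripotency genes used below had 9 constitutive regions, 5 of them broad.

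The promoters below show the sequence at 4 domains on which the results turn. Gata2 and Bsx lay in domains where Suz12 counts fell most, and Irs2 and Pdgfa in domains where they rose most. Each line gives the strand of the gene from 250 bases before the start to 50 after it, from RefSeq on GRCm38.p6, with CG dinucleotides in capitals. The Gata2 (chr6:88193641-88193940) and Bsx (chr9:40873877-40874176) promoters are on the plus strand, and those of Irs2 (chr8:11008880-11009179) and Pdgfa (chr5:138994232-138994531) on the minus strand. Where a gene had several annotated starts in its domain, the promoter of lowest coordinate is shown.
Gata2: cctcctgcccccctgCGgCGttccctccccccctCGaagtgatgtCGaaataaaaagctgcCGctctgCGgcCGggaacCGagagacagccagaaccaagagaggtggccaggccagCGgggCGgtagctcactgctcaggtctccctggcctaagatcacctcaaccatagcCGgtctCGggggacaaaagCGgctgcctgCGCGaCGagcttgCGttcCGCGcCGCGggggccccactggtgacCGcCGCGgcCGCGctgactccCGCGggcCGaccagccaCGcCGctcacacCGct
Bsx: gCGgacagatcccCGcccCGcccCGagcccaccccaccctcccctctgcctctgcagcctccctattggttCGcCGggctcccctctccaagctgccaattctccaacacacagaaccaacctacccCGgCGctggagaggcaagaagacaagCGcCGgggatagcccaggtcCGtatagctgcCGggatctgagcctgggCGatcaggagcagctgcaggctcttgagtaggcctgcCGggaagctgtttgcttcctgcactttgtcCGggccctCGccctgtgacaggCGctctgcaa
Irs2: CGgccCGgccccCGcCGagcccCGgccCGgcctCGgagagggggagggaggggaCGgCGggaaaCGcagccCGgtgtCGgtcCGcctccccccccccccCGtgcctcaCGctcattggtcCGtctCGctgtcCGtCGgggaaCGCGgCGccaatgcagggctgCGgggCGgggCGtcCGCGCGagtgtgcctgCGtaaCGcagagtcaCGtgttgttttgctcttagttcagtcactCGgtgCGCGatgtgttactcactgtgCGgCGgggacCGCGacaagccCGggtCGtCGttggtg
Pdgfa: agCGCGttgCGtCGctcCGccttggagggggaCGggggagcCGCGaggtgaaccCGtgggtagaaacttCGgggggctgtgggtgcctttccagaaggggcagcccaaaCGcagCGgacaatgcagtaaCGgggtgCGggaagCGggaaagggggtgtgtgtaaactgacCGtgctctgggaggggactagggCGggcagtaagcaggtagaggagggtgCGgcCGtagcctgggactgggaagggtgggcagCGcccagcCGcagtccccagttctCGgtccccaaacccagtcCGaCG
The promoters held 32 CG dinucleotides at Gata2, 17 at Bsx, 41 at Irs2 and 24 at Pdgfa. Over the 410 listed RefSeq promoters with a start in a broad domain (330 genes), the median was 19 CG in 300 bases. It was 22 in 2764 promoters of the narrower constitutive regions, 25 in 4473 promoters of the other Suz12 regions, and 5 in 25204 promoters outside every region. Promoters in domains that fell had a median of 19 CG (341 promoters), and those in domains that rose 25.5 (26 promoters). The listed starts in broad domains thus had a lower median than those in narrower Suz12 regions, and both lay above promoters outside every region. Starts that the promoter set lacks are not part of this.

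The widest peaks of the 357 domains had a median width of 6520 bp, with quartiles of 5521 and 8637 bp and a maximum of 28192 bp. The domains made up 2.99% of all regions and 13.0% of their length. The widest domain (chr11:96279089-96307280) ran over Hoxb8, Hoxb7, Hoxb6, Hoxb5 and Hoxb3, genes that set position along the body axis. The second (chr11:119033870-119060307), of 26438 bp, lay at Cbx8, itself a Polycomb protein of PRC1. The next were Lmx1b (19125 bp), a LIM homeobox gene of limb and midbrain, Six3 (17300 bp), of forebrain and eye, and Lhx5 (17264 bp), of forebrain. Tbx2, Pax7, Hmx1, Ebf3, Pax2, Uncx and Skor1 completed the 12 widest, from 17078 down to 14252 bp. Just inside the threshold lay domains at Hoxc8 (5014 bp) and Wnt10a (5017 bp). Just outside it lay constitutive regions at Pax5 (4996 bp) and at Fbxl8 and Hsf4 (4993 bp).

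Nearly all domains lay at a protein-coding gene. Of the 357, 297 were assigned 1 such gene, meaning that it overlapped the domain or had an end within 1 kb of it, 46 were assigned 2 or more, and 14 none. A gene end lay within 1 kb of 304 domains (85.2%). A whole gene lay inside 71 domains (19.9%), against 1.99% of the narrower constitutive regions. Outside chromosome 18, 250 of 346 domains (72.3%) covered a start of the promoter set used here, against 56.5% of 3772 narrower regions. The set lacks some starts. It lists 1 in the widest domain, which lay at 5 Hoxb genes, and 0 in those at Tbx2, Lhx5, Sox9 and Wnt5a. Domains with no assigned protein-coding gene can hold a listed start too, so both shares describe the set. In the 148 domains with a single listed start, the domain reached a median of 2599 bp upstream and 4011.5 bp downstream of it. In 102 of these 148 (68.9%) the longer side was downstream, in the direction of transcription. Some of the 148 lay at several genes, such as the widest domain at Hoxb, with 2816 bp upstream and 25375 bp downstream. The lean downstream thus describes the listed starts and not domains known to hold 1 start. A second domain lay within 10 kb of 68 domains, for example at Hand2, Sox6 and Wnt10a, each of which had a pair of them.

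A gene of 17 lists lay at 194 domains (54.3%), against 14.4% of the narrower constitutive regions. The lists hold developmental regulators and signals, and also neurotransmitter receptors and ion channels, cadherins, nuclear receptors, imprinted genes and pluripotency genes. Of the constitutive regions at Hox genes 52.2% were broad (24 of 46), and at other homeobox and paired-box genes 49.1% (80 of 163). The share was 45% for zinc finger regulators of lineage (18 of 40), 33.3% for Gata genes (4 of 12) and 30% for forkhead genes (12 of 40). It was 8.34% over all constitutive regions. Genes of neurotransmitter receptors and ion channels were at the low end, with 6 broad of 169 (3.55%), as were protocadherins and cadherins with 4 of 61 (6.56%). The 4 Hox clusters held 7 domains at Hoxa, 4 at Hoxb, 7 at Hoxc and 6 at Hoxd genes, and their widest peaks summed to 69931, 53956, 56004 and 44317 bp in that order.

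The same domain was called as different numbers of peaks in different libraries. In DRB 12 h the 2 lists had a single peak at 117 and 240 of the 357 domains, against 115 and 174 in DRB 0 h. In triptolide 9 h they had 246 and 159, against 285 and 218 in triptolide 0 h. Treated and untreated lists thus overlapped, and the 2 lists of a group differed by as much as the groups did. A single peak in every list was seen at 54 domains. The Hoxb domain was called as 10 and 5 peaks at DRB 12 h, against 14 and 6 at DRB 0 h, and as 5 and 8 at triptolide 9 h, against 3 and 7 at triptolide 0 h. The length covered by peaks had a median of 5366 and 6413 bp at DRB 12 h, against 4985 and 5979 bp at DRB 0 h, and of 6163 and 6011 bp at triptolide 9 h, against 6349 and 6243 bp at triptolide 0 h. A peak of 5000 bp was reached in all 8 lists at 42 domains and in a single list at 77, so for many domains the class rests on few libraries.

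**Figure D1:**
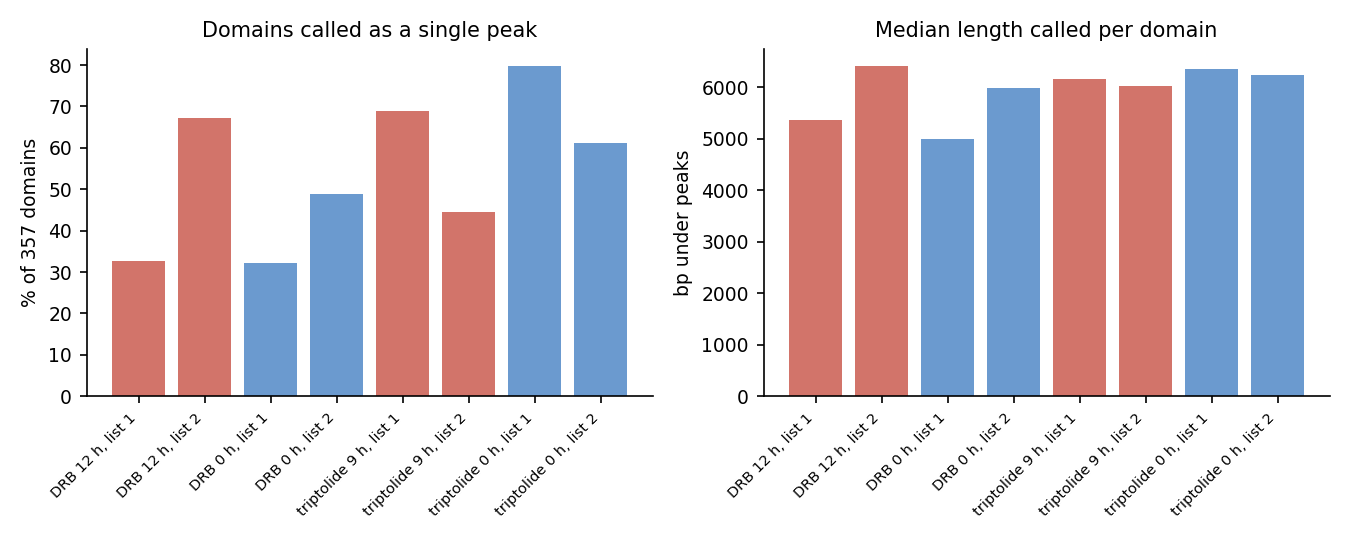
Percent of the 357 domains called as a single peak (left) and median length in bp under peaks per domain (right) in each of the 8 peak lists, treated lists in red and untreated lists in blue. Single-peak domains range from 115 in a DRB 0 h list to 285 in a triptolide 0 h list, and the colours overlap.

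After both drugs the broad domains held a smaller share of the Suz12 reads. The domains took 20.9% and 20.7% of all counted reads at DRB 12 h, against 25.3% and 24.2% at DRB 0 h. They took 20.7% and 20.3% at triptolide 9 h, against 24.8% and 25.4% at triptolide 0 h. The 4 treated libraries all had smaller shares than the 4 untreated ones, with means of 20.7% ± 0.243 and 24.9% ± 0.542 (SD, n = 4 each), a ratio of 0.829. The narrower constitutive regions took 54.3% to 55.4% of reads in treated libraries and 58.0% to 58.9% in untreated ones. Other regions took at least 23.7% in treated libraries and at most 17.5% in untreated ones. These are shares of reads over called regions, so a lower share does not say that fewer Suz12 molecules were bound. Treated lists also held more peaks, with 10929 and 10492 at DRB 12 h, against 5795 and 6886 at DRB 0 h. They held 7153 and 10005 at triptolide 9 h, against 5116 and 6728 at triptolide 0 h. Regions called in treated lists alone enter the total, so the choice of regions favours a smaller share for the domains in treated libraries. Within the constitutive regions alone, the domains took 26.9% to 27.6% of reads in treated libraries and 29.4% to 30.2% in untreated ones.

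**Figure D2:**
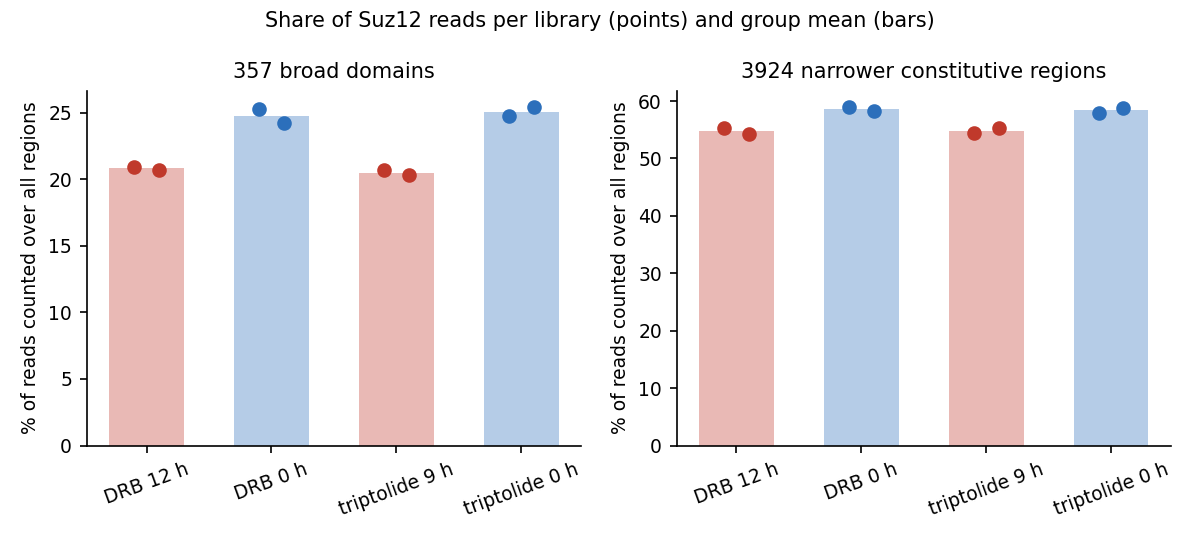
Percent of the reads counted over all 11943 regions that fell in the 357 broad domains (left) and in the 3924 narrower constitutive regions (right), with a point per library and a bar at the group mean. In the broad domains the treated libraries (red) lie at 20.3% to 20.9% and the untreated libraries (blue) at 24.2% to 25.4%.

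Domain by domain, 296 of the 357 fell and 24 rose over both drugs together, by edgeR's quasi-likelihood test with Benjamini-Hochberg adjustment over all regions (adjusted p under 0.05), and 37 were not called. Over all 11943 regions 28.9% were called lower and 28% higher. The median log2 change of the domains was -0.51, against -0.36 in narrower constitutive regions and 0.05 over all regions. Of the narrower constitutive regions 2232 of 3924 (56.9%) fell and 416 (10.6%) rose. In 272 domains the highest treated library was under the lowest untreated one (25.2% of all regions), and in 20 the reverse held (24.4% of all regions). CPM stands here for reads per 1e6 counted over the regions after TMM scaling. Per kb of domain, the median level was 70.9 CPM in treated cells and 99.1 CPM in untreated cells, against 47.4 CPM and 56.2 CPM in narrower constitutive regions.

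The width that chose the members bears on these counts, so they are a description. The widest peak came from an untreated list at 235 domains, of which 233 fell and 2 were not called. It came from a treated list at 122 domains, of which 63 fell and 24 rose. At 243 domains a peak of 5000 bp was reached in lists of both sides. Of these 221 fell and 4 rose, with a median log2 change of -0.54. At 57 domains 5000 bp was reached in untreated lists alone, and all 57 fell. At another 57 it was reached in treated lists alone, and there 18 fell and 20 rose, with a median of 0.07. Counting over the widest untreated peak in place of the widest peak gave 293 lower and 24 higher.

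The scaling of the libraries moved the counts. TMM over all regions takes the many regions outside the constitutive set as part of its baseline. TMM over the constitutive regions alone set the baseline by those regions, whose median log2 change was then -0.016. The median of all regions stood at 0.41, against 0.05 before. This scaling left 153 domains lower and 54 higher, with a median log2 change of -0.15. Of all regions 10.7% were then called lower and 49.2% higher, and narrower constitutive regions had a median of 0.01. Under this scaling DRB gave 60 lower and 45 higher, with 4.78% and 33% of all regions called, and triptolide 100 lower and 44 higher, with 4.75% and 38% of all regions called. Scaling to the sum of counts gave 253 lower and 44 higher over both drugs, and the share of all regions called under it is not given here. The 2 TMM scalings shift all regions by nearly the same amount, so the gap between broad domains and narrower constitutive regions is about the same under each by construction. The gap was not tested.

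Lower calls were most frequent among the widest regions. Among constitutive regions the share called lower was 56.3% below 1 kb, 56.9% at 1 to 2 kb, 53.8% at 2 to 3 kb and 62.1% at 3 to 5 kb. It was 78.0% at 5 to 7.5 kb and 91.5% at 7.5 kb or more. Regions called higher were most frequent at 2 to 3 kb (15.0%) and made up 1.54% of those of 7.5 kb or more. The median log2 change did not run steadily with width. It was -0.41 below 1 kb, -0.39 at 1 to 2 kb, -0.33 at 2 to 3 kb, -0.36 at 3 to 5 kb, -0.47 at 5 to 7.5 kb and -0.57 at 7.5 kb or more. Wider regions also held more reads, so smaller changes can pass the test there. Within the domains the correlation of width with log2 change was weak (Pearson r = -0.22, Spearman rho = -0.25, over 357 domains that share the same 8 libraries).

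**Figure D3:**
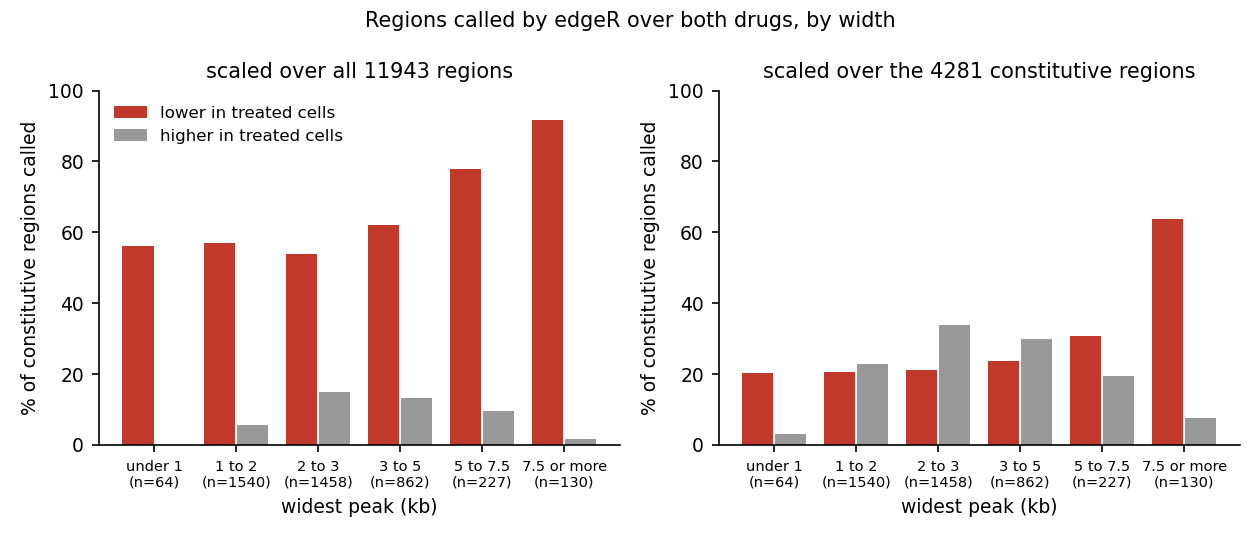
Percent of constitutive regions called lower (red) or higher (grey) in treated cells over both drugs, by width of the widest peak, with library scaling over all regions (left) or over constitutive regions alone (right). On the left the share called lower is 53.8% to 62.1% below 5 kb and 91.5% at 7.5 kb or more; on the right higher calls outnumber lower ones in the classes from 1 to 5 kb.

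Density of Suz12 also differed among the domains. Of the 4 quartiles of density over constitutive regions, 240 domains lay in the highest (72.6 to 177 CPM per kb over all 8 libraries) and 8 in the lowest (15.7 to 41.0). In the highest quartile 222 of 240 fell and 1 rose, with a median of -0.54, against -0.44 for the 830 narrower regions of that quartile. In the lowest, 7 of 8 domains rose, with a median of 0.61. All 8 of these reached 5000 bp in treated lists alone, so the rule that chose them favours a rise, and they are not set against narrower regions. The highest levels in untreated cells were at Sp9, a zinc finger gene of forebrain interneurons, with 121 CPM per kb in treated cells and 172 CPM per kb in untreated cells. Nkx1-1 (108 CPM per kb in treated cells and 168 CPM per kb in untreated cells), a homeobox gene, and Foxc1 (110.1 CPM per kb in treated cells and 167 CPM per kb in untreated cells), a forkhead gene of eye and vessels, came next. The lowest were a domain with no assigned protein-coding gene (chr11:120184342-120190065), with 37.7 CPM per kb in treated cells and 24.3 CPM per kb in untreated cells, and those at Stac3 and Ndufa4l2 and at Foxd3. The 3 lowest rose and the 3 highest fell, as a description only. The order uses the untreated level that the change is taken over, and each of the 3 lowest reached 5000 bp in treated lists alone. Under scaling to constitutive regions edgeR gave Sp9 a log2 value of -0.14 (adjusted p = 0.197) and Foxc1 one of -0.24 (adjusted p = 0.117).

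The largest fall was at Gata2, a regulator of blood progenitors. Its domain (chr6:88191676-88201899) had 777 and 631 CPM at DRB 12 h, against 1473 and 1198 CPM at DRB 0 h, and 576 and 600.3 CPM at triptolide 9 h, against 1213 and 1366 CPM at triptolide 0 h. Every treated library lay far below every untreated one, and the log2 change, averaged over the drugs, came to -1.03 ± 0.093 (SE; adjusted p = 5.73e-06) by edgeR. A domain with no assigned protein-coding gene (chr1:78198687-78205668) had 153 and 227 CPM at DRB 12 h, against 346 and 404 CPM at DRB 0 h, and 188 and 193 CPM at triptolide 9 h, against 415 and 371 CPM at triptolide 0 h, a log2 change of -1.01 ± 0.12 (SE; adjusted p = 2.91e-05) by edgeR. Treated and untreated libraries did not overlap there either, at a level of Suz12 that was lower from the start. The merged region runs over chr1:78188755-78205668, but reads were counted and genes assigned over its widest peak alone. That peak holds 1 listed start, so the domain is not known to be free of genes.

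Sox6, a regulator of cartilage and red blood cells, and Hand2, of heart and limb, each had a pair of adjacent domains that fell by different amounts. The Sox6 domain at chr7:116035534-116040738 had 119.6 and 179 CPM at DRB 12 h, against 232 and 307 CPM at DRB 0 h, and 162 and 153 CPM at triptolide 9 h, against 329 and 314 CPM at triptolide 0 h. Its log2 change was -0.94 ± 0.13 (SE; adjusted p = 7.35e-05) by edgeR, against -0.68 in the neighbouring domain at chr7:116029927-116035341. The Hand2 domain at chr8:57324576-57329848 changed by -0.94 ± 0.098 (SE; adjusted p = 1.55e-05), edgeR, on the log2 scale, and the one over its start at chr8:57319098-57324541 by -0.63. In both genes the less dense domain of the pair had the lower value. At Wnt10a it was the denser one, with 91.6 CPM per kb in untreated cells and a log2 change of -0.82, against 60.7 CPM per kb and -0.68 in its neighbour. The domain with the larger fall in each of these pairs reached 5000 bp in the first triptolide 0 h list alone. The rule that chose it thus favours a fall. The difference within a pair was not tested.

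Shh, the hedgehog ligand that patterns neural tube and limb, had 751 and 685 CPM at DRB 12 h, against 1405 and 1231 CPM at DRB 0 h, and 723 and 752 CPM at triptolide 9 h, against 1309 and 1421 CPM at triptolide 0 h. Its log2 change was -0.88 ± 0.076 (SE; adjusted p = 4.00e-06) by edgeR. Bsx, a homeobox gene of the hypothalamus whose promoter is shown above, had 320.1 and 339 CPM at DRB 12 h, against 635 and 594 CPM at DRB 0 h, and 391 and 365 CPM at triptolide 9 h, against 683 and 697 CPM at triptolide 0 h. Its log2 change was -0.88 ± 0.075 (SE; adjusted p = 3.89e-06) by edgeR. At both genes every treated library was lower than every untreated one. In each of the 6 domains with the largest falls the widest peak came from the first triptolide 0 h list, so the rule favours their direction.

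The 12 widest domains all fell, by -0.41 (Skor1) to -0.71 (Lmx1b) on the log2 scale. The widest peak came from an untreated list at all of them but Skor1, so the rule favours their fall. The Hoxb domain had 1495 and 1565 CPM at DRB 12 h, against 2341 and 2149 CPM at DRB 0 h, and 1557 and 1353 CPM at triptolide 9 h, against 2340 and 2245 CPM at triptolide 0 h. The highest treated value was under the lowest untreated one, with a log2 change of -0.60 ± 0.07 (SE; adjusted p = 2.90e-05) by edgeR. Cbx8 had 1818 and 1836 CPM at DRB 12 h, against 2602 and 2572 CPM at DRB 0 h, and 1839 and 1848 CPM at triptolide 9 h, against 2683 and 2791 CPM at triptolide 0 h, and a log2 change of -0.54 ± 0.06 (SE; adjusted p = 2.28e-05) by edgeR. The 4 treated libraries of Cbx8 lay close together, between 1818 and 1848 CPM, and the untreated ones between 2572 and 2791 CPM. Lmx1b had 1388 and 1429 CPM at DRB 12 h, against 2231 and 2092 CPM at DRB 0 h, and 1337 and 1297 CPM at triptolide 9 h, against 2230 and 2367 CPM at triptolide 0 h, and a log2 change of -0.71 ± 0.064 (SE; adjusted p = 5.73e-06) by edgeR. Pax2, a paired-box gene of the kidney, changed by -0.68, Ebf3, of neuronal differentiation, by -0.66, and Hmx1, a homeobox gene of eye and ear, by -0.65. Skor1, a corepressor of dorsal spinal cord neurons, had the smallest fall of the 12, and under scaling to constitutive regions its log2 value was -0.042 (adjusted p = 0.662) by edgeR.

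**Figure D4:**
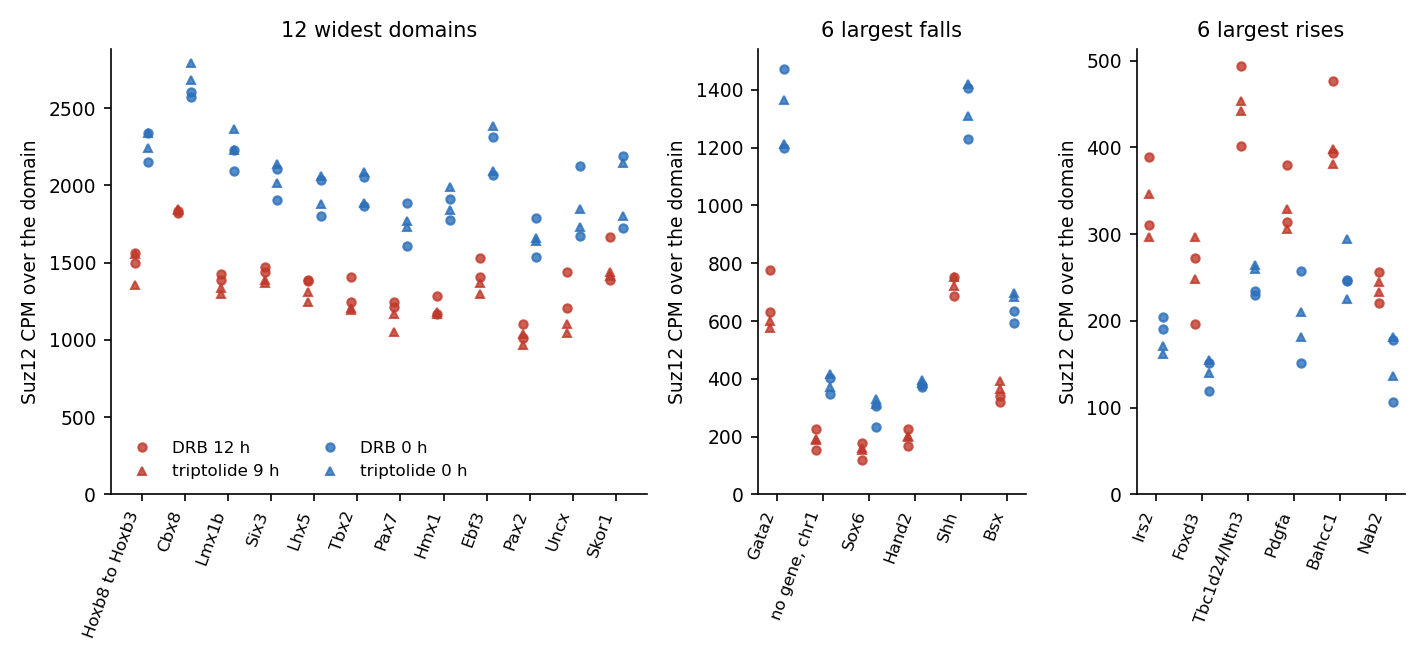
Suz12 CPM over each domain in each library, treated libraries in red and left of the untreated libraries in blue, circles for the DRB pair and triangles for the triptolide pair, for the 12 widest domains and those with the 6 largest falls and the 6 largest rises. At Gata2 treated libraries lie at 576 to 777 CPM and untreated ones at 1198 to 1473; at Irs2 treated libraries lie at 297 to 389 CPM and untreated ones at 162 to 205.

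The largest rise was at Irs2, which encodes an adaptor of the insulin receptor. Its domain (chr8:11004324-11010217) had 389 and 311 CPM at DRB 12 h, against 205 and 190.1 CPM at DRB 0 h, and 297 and 347 CPM at triptolide 9 h, against 162 and 171 CPM at triptolide 0 h. Every treated library was higher than every untreated one, with a log2 change of 0.89 ± 0.099 (SE; adjusted p = 2.28e-05) by edgeR. Peaks covered 5676 and 5894 bp at DRB 12 h, against 2005 and 2306 bp at DRB 0 h, and 5887 and 5250 bp at triptolide 9 h, against 2050 and 2440 bp at triptolide 0 h. The domain was thus broad in treated lists alone, and its membership rests on them.

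Foxd3, a forkhead gene of pluripotent cells and neural crest, had 197 and 273 CPM at DRB 12 h, against 151 and 119 CPM at DRB 0 h, and 297 and 248 CPM at triptolide 9 h, against 155 and 140.4 CPM at triptolide 0 h. The treated libraries were the higher ones, by 0.86 ± 0.12 (SE; adjusted p = 1.16e-04) on the log2 scale in edgeR, and peaks covered 4317 and 5445 bp at DRB 12 h, against 1729 and 2456 bp at DRB 0 h, and 5033 and 4735 bp at triptolide 9 h, against 2072 and 2768 bp at triptolide 0 h. The promoter of Foxd3 lies just outside this domain (chr4:99650033-99655477). Tbc1d24, a gene of synaptic vesicle traffic, shares its domain with the netrin gene Ntn3. The domain had 494 and 402 CPM at DRB 12 h, against 230.1 and 235 CPM at DRB 0 h, and 442 and 454 CPM at triptolide 9 h, against 260.3 and 265 CPM at triptolide 0 h. That is a log2 change of 0.86 ± 0.087 (SE; adjusted p = 1.28e-05) by edgeR, without overlap between treated and untreated libraries. Pdgfa, a platelet-derived growth factor, had 380.1 and 314 CPM at DRB 12 h, against 257 and 151 CPM at DRB 0 h, and 306 and 328 CPM at triptolide 9 h, against 182 and 211 CPM at triptolide 0 h. The log2 change was 0.75 ± 0.14 (SE; adjusted p = 7.05e-04) by edgeR, with the DRB 0 h libraries unequal. Bahcc1, which encodes a protein with a BAH domain, and Nab2, a corepressor of EGR factors, rose by 0.70 and 0.70.

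The widest peak of all 24 domains that rose came from a treated list, so the rule favours their direction. Their median density was 60.0 CPM per kb in treated cells and 43.0 CPM per kb in untreated cells. In the 296 that fell it was 71.5 and 104 CPM per kb in the same order. Of the 24, 6 held a gene of the 17 lists.

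The domains moved in the same direction under both drugs. Under DRB 243 fell and 17 rose, where 19.2% of all regions were called lower and 18% higher. Under triptolide 278 fell and 16 rose, against 21.9% and 19.3% of all regions. The median log2 change was -0.46 for DRB and -0.57 for triptolide. Of the domains that fell 239 did so under both drugs, 98.4% of the DRB list and 86.0% of the triptolide list, and 15 rose under both. The drugs had separate 0 h libraries, and across the 357 domains the log2 changes had a Pearson r of 0.96. The domains share libraries and are not independent, so no test was made of it. The overlap of calls and the correlation are given for the domains alone. Without values over all regions, neither is shown to be particular to broad domains. Signs were opposite at 10 domains, none of which was called in both. The triptolide change lay below the DRB change at 311 of the 357, by a median of 0.12 (DRB minus triptolide), where the median over all regions was 0.037. Under scaling to constitutive regions it did so at 249, by a median of 0.049.

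The difference between the drugs was also tested for each domain. By edgeR 0 domains differed at an adjusted p under 0.05, 2 had an unadjusted p under 0.05, and DESeq2 called 0. Over all regions edgeR called 0.0167% lower and 0% higher. The differences ran from -0.36 to 0.36, with a median SE of 0.16, so differences of this size cannot be told from 0 with these libraries. The doses and times of the drugs differ, so the changes stand side by side here. Tbx3, a T-box gene of stem cells and limb, was among the widest apart, with a log2 change of 0.32 under DRB and -0.03 under triptolide. It had 239.7 and 308 CPM at DRB 12 h, against 224 and 217 CPM at DRB 0 h, and 300.0 and 319 CPM at triptolide 9 h, against 264 and 371 CPM at triptolide 0 h, and the 2 libraries of triptolide 0 h differed from each other by more than the groups did.

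**Figure D5:**
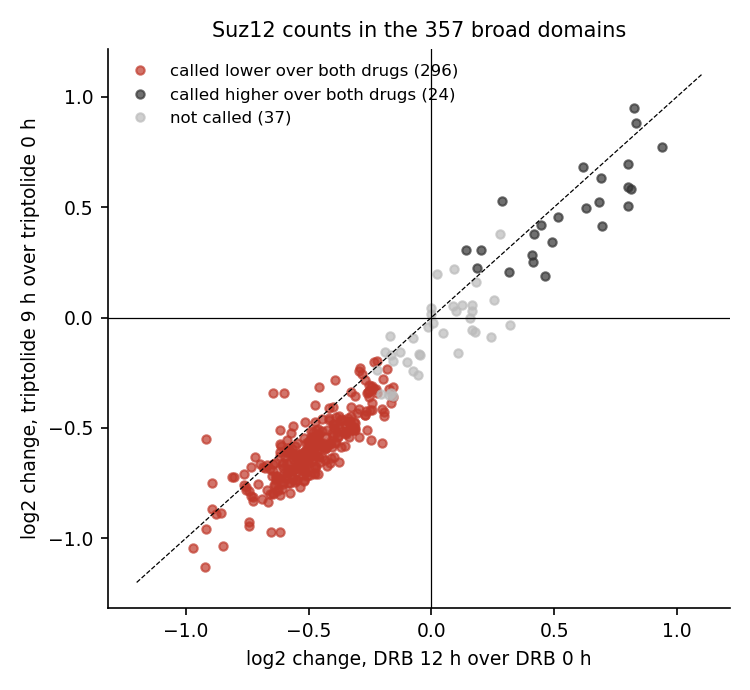
Log2 change in Suz12 counts after DRB (x axis, 12 h over 0 h) and after triptolide (y axis, 9 h over 0 h) for each of the 357 broad domains, with domains called lower over both drugs in red, higher in dark grey and not called in light grey; the dashed line marks equal change. Most points lie in the lower left quadrant, and 311 of 357 lie below the dashed line.

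Gene families of the body plan are given first. All 24 domains at Hox genes fell, with a median log2 change of -0.60, and 16 still did under scaling to constitutive regions. Hoxa11 changed by -0.64, the domain of Hoxa3, Hoxa7 and Hoxa9 by -0.65, and that of Hoxc10 and Hoxc9 by -0.62. Of 80 domains at other homeobox and paired-box genes 75 fell and 1 rose (median -0.59). The one that rose lay at Gbx2, by 0.65; Gbx2 was looked up after the count was seen. Of the 80, 52 were lower and 5 higher under scaling to constitutive regions. Each count is to be read against the 296 of 357 domains that fell in all.

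Of 12 domains at forkhead genes 11 fell (median -0.61), among them Foxd2 of kidney and somites (-0.68) and Foxf1 of lung and gut mesoderm (-0.59), and Foxd3 was the one that rose. Foxd2 had 858 and 716 CPM at DRB 12 h, against 1285 and 1110 CPM at DRB 0 h, and 726 and 726 CPM at triptolide 9 h, against 1153 and 1281 CPM at triptolide 0 h. At T-box genes 5 of 6 fell, with Tbx1, of the pharyngeal arches, at -0.59, and Tbx3 was not called. At Sox genes 4 of 6 fell. Sox9 of cartilage and testis changed by -0.49 and Sox14 by -0.50, while Sox3 was not called, with a log2 value of -0.16 ± 0.12 (SE; adjusted p = 0.271) by edgeR. All 4 domains at Gata genes fell, with Gata2 and then Gata4 of heart and endoderm (-0.70) moving most, Gata6 by -0.56 and Gata3 by -0.48. Under scaling to constitutive regions 8 of 12 forkhead, 4 of 6 T-box, 2 of 6 Sox and 3 of 4 Gata domains were lower. Foxd3 and Tbx3 were then higher, and Sox9, Sox14 and Gata3 lost their calls.

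All 10 domains at bHLH genes of lineage fell (median -0.55), for example Olig2 of oligodendrocytes and motor neurons (-0.57) and Hand1 of heart and placenta (-0.54). Olig2 had 1020 and 997 CPM at DRB 12 h, against 1457 and 1444 CPM at DRB 0 h, and 1001 and 1037 CPM at triptolide 9 h, against 1479 and 1635 CPM at triptolide 0 h. Of 18 domains at zinc finger regulators 16 fell and 1 rose. Osr1 of kidney and heart changed by -0.65 and Prdm12 of pain-sensing neurons by -0.68. The wider of 2 domains at Zic2, a regulator of forebrain and of pluripotent cells, was the one that rose, with 0.22 ± 0.09 (SE; adjusted p = 0.0484) by edgeR, close to the threshold. One DRB 0 h library had 691 CPM, above all 4 treated libraries, and leaving out any of 6 libraries in turn ended the call. With scaling to constitutive regions 6 of the 10 bHLH domains were lower, and of the 18 zinc finger domains 7 were lower and 2 higher.

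Most domains at signalling genes fell. All 9 domains of the Wnt list fell (median -0.57), among them Wnt5a (-0.55), Wnt7b (-0.51) and both domains at Wnt10a (-0.82 and -0.68). All 3 domains at hedgehog ligands fell, with Shh first, Ihh of bone growth at -0.60 and Dhh of testis and nerve sheath at -0.28. All 3 of the BMP and TGF-beta list fell, with Gdf6 at -0.59, Fst, an activin binder, at -0.34, and the domain of Gdf7 and Ldah at -0.28. Under scaling to constitutive regions 6 of the 9 Wnt domains, 2 of the 3 hedgehog and 1 of the 3 BMP and TGF-beta domains were lower, and Wnt7b lost its call. The values of Dhh, Fst and Gdf7 were 0.092, 0.024 and 0.087 under that scaling, and none of them passed there. The pair of FGF domains moved apart. Fgf9 had 531 and 560.0 CPM at DRB 12 h, against 823 and 753 CPM at DRB 0 h, and 564 and 564 CPM at triptolide 9 h, against 844 and 971 CPM at triptolide 0 h, a log2 change of -0.61 ± 0.077 (SE; adjusted p = 4.74e-05) by edgeR. Fgf11, whose domain also holds Tmem102, had 431 and 369 CPM at DRB 12 h, against 279 and 220.5 CPM at DRB 0 h, and 379.7 and 344 CPM at triptolide 9 h, against 258 and 285 CPM at triptolide 0 h, a log2 change of 0.55 ± 0.099 (SE; adjusted p = 4.84e-04) by edgeR.

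Effector genes of neurons gave fewer broad domains and a mixed picture. Of 6 domains at receptors and channels 3 fell and 2 rose (median -0.18). The potassium channel gene Kcna1 changed by -0.58 and the glutamate receptor gene Grm4 by -0.53. The calcium channel gene Cacnb3, named after the count was seen, rose by 0.49. The glutamate receptor gene Grik3 had 0.33 ± 0.13 (SE; adjusted p = 0.0459) by edgeR, and the call was lost without 5 of the 8 libraries in turn. All 4 domains at protocadherins and cadherins fell, from -0.63 at Pcdh8 to -0.41 at Pcdh7, and under scaling to constitutive regions Pcdh8 was the 1 of 4 that was still called. All 6 at nuclear receptors fell, with Nr2e1 of neural stem cells at -0.57, and Nr4a2 of dopamine neurons at -0.27. Of the 6, 2 were lower under scaling to constitutive regions, and Nr4a2 was among those that lost the call. Igf2, an imprinted growth factor gene, was the single domain of the imprinted list and changed by -0.43 ± 0.091 (SE; adjusted p = 0.00149) by edgeR. Its value under scaling to constitutive regions was -0.064 (adjusted p = 0.505) in edgeR. Of the 6 receptor and channel domains 1 was lower and 3 were higher under that scaling, and Grm4 lost its call.

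Domains at genes used by pluripotent cells gave both directions with scaling over all regions, and higher calls alone with scaling to constitutive regions. Of 5 on the list 2 fell and 2 rose, with a median of 0.14 and a median density of 46.6 CPM per kb in treated cells and 54.8 CPM per kb in untreated cells. Foxd3 and Zic2 rose, as given above. Otx2, a homeobox gene of the epiblast and forebrain, had 272 and 342 CPM at DRB 12 h, against 374 and 333 CPM at DRB 0 h, and 349 and 328 CPM at triptolide 9 h, against 459.6 and 451 CPM at triptolide 0 h, a log2 change of -0.31 ± 0.092 (SE; adjusted p = 0.0117) by edgeR. The log2 change at Otx2 was -0.19 under DRB and -0.43 under triptolide, and the difference was not called (adjusted p = 0.999 by edgeR). Under scaling to constitutive regions the value of Otx2 was 0.059 (adjusted p = 0.576) in edgeR. The domain of Tbx3 was not called, but under scaling to constitutive regions it was higher, with 0.51 (adjusted p = 0.00194) in edgeR. The list then had 0 lower and 3 higher, with a median of 0.51. A second domain at Zic2, shared with Pcca (chr14:122480956-122486342) and named after its value was seen, fell by 0.39 on the log2 scale (adjusted p = 0.0187 by edgeR), while the wider one rose. Under scaling to constitutive regions the value of this second domain was -0.021 (adjusted p = 0.896) in edgeR. Some of these genes stand on other lists as well and are counted there too.

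Domains with a gene of the 17 lists fell in 179 of 194 cases and rose in 6, with a median log2 change of -0.57. Domains without one fell in 117 of 163 and rose in 18, with a median of -0.41. They were also narrower, with a median of 6038 bp, against 7274.5 bp for those with a listed gene, and their density in untreated cells was 91.5 CPM per kb, against 105 CPM per kb. The part of width and density in this difference was not tested. Of the 14 domains with no protein-coding gene over them or ending within 1 kb 13 fell and 1 rose, with a median of -0.58.

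The outer parts of the domains were looked at separately. Within 335 domains, the parts outside the peaks of the first DRB 0 h list made up 25.7% of the length. They held 4.59% and 8.35% of the reads at DRB 12 h, against 5.79% and 7.88% at DRB 0 h, and 8.48% and 7.36% at triptolide 9 h, against 9.19% and 7.29% at triptolide 0 h. Treated and untreated libraries overlapped in this share. They also did with the peaks of the first DRB 12 h list as inner part, chosen after seeing the data, with 5.79% to 9.64% in treated libraries and 7.99% to 11.2% in untreated ones (312 domains). The share differed more between the libraries of DRB 12 h than between treated and untreated cells.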

How the data were processed

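The data are Suz12 ChIP-seq peak lists and counts from 8 libraries of E14 cells. Per the submitters' processing notes, Bowtie, MACS and mm10 (GRCm38) were used; the sources used here give no versions. The authors deposited 1 peak list per library, with raw counts over its peaks in 13 columns per the file headers. The deposited counts are raw whole numbers. The 5 columns of other samples were not used. DRB columns match their group and carry an index, so DRB counts are named by index, ATCACG first and then TGACCA, and peak lists by replicate number.

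Peaks overlapping by 1 bp were merged, and each region took the counts of its widest peak. Counts of all 11943 regions were fitted without a filter in edgeR 4.0.16 (R 4.3.3), as 4 groups, with TMM scaling and the quasi-likelihood test. Contrasts were each drug against its own 0 h, their mean and their difference, with Benjamini-Hochberg adjustment over all regions. Library totals were not used, so changes are relative. The fit was tested on simulated data. Protein-coding genes overlapping the widest peak of a domain or with an end within 1 kb of it, and promoters, came from RefSeq (GRCm38.p6). Promoters on chromosome 18 were not used, and the promoter set lacks some starts, as given above. Named domains were set by a rule: the 12 widest, the 6 largest falls and rises, up to 4 by drug difference, the 3 highest and lowest densities, 2 on either side of 5000 bp, and up to 4 per gene list by width. Not all of these are printed. Members, lists and tests were chosen with earlier results of these data known. Alternatives were DESeq2 1.42.0, other scalings, filters, widths, merging rules, blocks and leaving out each library.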

Additional observations from a re-analysis of the deposited data

How the results depend on the processing

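The number of domains was 586 with a widest peak of at least 4000 bp and 130 at 7500 bp. It was 359 with 7 of 8 lists or peaks merged at an overlap of 0.5, and 383 by merged width. TMM over constitutive regions gave, as lower and higher, 153 and 54 over both drugs, 60 and 45 for DRB and 100 and 44 for triptolide, with a median log2 change of -0.15. Scaling to the sum of counts gave 44 higher over both drugs, 32 for DRB and 32 for triptolide, and a median of -0.31. No share of all regions is given for it. At 4000 bp the calls were 449 lower and 50 higher over both drugs, with 37 higher for DRB and 31 for triptolide. At 7500 bp they were 119 and 2 over both drugs, 110 and 1 for DRB, and 114 and 1 for triptolide. The larger or smaller number of domains is part of these counts. The width rules change the members and not the fit, so the shares of all regions called are those of the main fit. The following membership rules were chosen after seeing the data. With 5000 bp reached in both untreated and treated lists, higher calls were 4, 2 and 2 for both drugs, DRB and triptolide, and the same numbers held with 5000 bp reached in untreated lists. The ratio of the share of counts was 0.852 at 4000 bp, 0.793 at 7500 bp, 0.807 with both sides and 0.802 with untreated lists. The cause of the changes under another scaling was not tested.

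The triptolide numbers do not pair the samples by the labels, and 2 pairs are too few to tell (correlation 0.39). By index, the DRB libraries gave a correlation of 0.38, and the main fit did not pair them either. The fit with the triptolide replicate block gave 293 lower and 21 higher over both drugs, 235 and 17 for DRB, and 274 and 16 for triptolide. Adding a DRB index block, chosen after seeing the data, gave 309 and 29 over both drugs, 292 and 25 for DRB, and 305 and 27 for triptolide. Leaving out each library gave 275 to 298 lower and 19 to 24 higher over both drugs. For DRB it gave 171 to 250 lower and 6 to 19 higher, with 6 without the DRB 0 h library of index TGACCA. For triptolide it gave 188 to 286 lower and 7 to 20 higher, with 7 without triptolide 0 h replicate 1 or 9 h replicate 1, 10 without 0 h replicate 2 and 8 without 9 h replicate 2. In these fits a lone library is taken to vary like the other groups. The share of all regions called is not given for these fits or the block fits. Their counts thus cannot tell a change in the domains from a change in calling over all regions. The median lay between -0.55 and -0.48 and the ratio of shares between 0.822 and 0.835. No domain was called different between the drugs in any of these fits.

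Among named domains, TMM over constitutive regions turned the sign at Sox3 (0.21), Gdf7 (0.087), Fst (0.024), Dhh (0.092), Nr4a2 (0.10) and Otx2 (0.059), none past the threshold, and the sum of counts that of Sox3 (0.045). TMM over constitutive regions also ended the call of another 15 of the 82 named domains without a turn of sign, namely Skor1, Foxc1, Sp9, Sox14, Sox9, Gata3, Neurod2, Osr2, Wnt7b, Grm4, Pcdh7, Pcdh10, Pcdh17, Nr2f2 and Igf2, with log2 values of -0.24 to -0.038. It gained a higher call at Tbx3 (0.51) and Kcnh3 (0.54). Calls were lost without triptolide 9 h replicate 1 at Gdf7 and Nr4a2 and without 9 h replicate 2 at Otx2. Depth limits precision, since the shallowest library held 1323927 reads over the regions.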
